A study of Homo sapiens with 10 samples.

Results

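The Wnt pathway genes examined here are 58 genes of the Wnt signalling pathway, of 23609 gene names in each of the deposited tables. They were picked out by a list of gene symbols, drawn up with earlier results of these data known, and comprise 19 Wnt ligands, 10 Frizzled receptors, 5 co-receptors and other Wnt receptors, 8 secreted antagonists, 3 Dishevelled proteins, 5 genes of beta-catenin and its destruction complex, 4 TCF/LEF transcription factors and 4 feedback inhibitors. All 58 had 1 row in each table. The cells were SH-SY5Y, an established human neuroblastoma line that the labels also describe as neural progenitors. Poly(A) RNA was sequenced 72 h after treatment with 100 nM of an siRNA against LncND, a primate long non-coding RNA (3 libraries), or with a scrambled siRNA (3 libraries). The other table holds 2 libraries of cells given 50 nM of a miR-143-3p mimic and 2 of cells given a scrambled miRNA. The series title places LncND in the Notch pathway, as a transcript that binds a miRNA, and both treatments were applied to the same single cell line, so every result describes that line. No label gives a dose for either scrambled sequence.

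Wnt ligands are secreted lipid-modified proteins that bind Frizzled receptors together with the co-receptors LRP5 and LRP6. Without a ligand, a destruction complex built on APC and axin marks beta-catenin for breakdown, and with one, Dishevelled proteins disable that complex so that beta-catenin enters the nucleus and acts with TCF/LEF factors. In the neural crest, from which neuroblastoma arises, Wnt signalling takes part in induction, migration and the choice of cell fate. ROR1, ROR2 and RYK serve routes that do not need beta-catenin.

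The mature sequence of hsa-miR-143-3p (RefSeq, GRCh38.p14, chr5:149428978-149428998, plus strand) is shown with its seed, bases 2 to 8, in capitals, because the mimic carries this microRNA. Below it stand stretches of the 3′ UTR of member genes that hold a seed match, from the longest annotated 3′ UTR of each gene (GENCODE v29, GRCh38). Capitals mark the match. They were chosen to show 3 members with an 8-base match, the fallen ligand WNT5B with 2 matches, and members with a single shorter match.
hsa-miR-143-3p: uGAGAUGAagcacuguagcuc
DVL3, chr3:184171481-184171510, plus strand: aaccagcaggcTCATCTCAcctccaggcct
TCF7, chr5:134146605-134146634, plus strand: tcctgttaacgTCATCTCAgggtccagacc
WNT7A, chr3:13817907-13817936, minus strand: gggttgaggcaTCATCTCAtccatgttagc
WNT5B, chr12:1646813-1646842, plus strand: gaagtccaaggTCATCTCtggcccagtgac
WNT5B, chr12:1647148-1647177, plus strand: cggcgtgctcaTCATCTCtgccccaggtgt
ZNRF3, chr22:29054900-29054929, plus strand: gctgaaattgcTCATCTCgtctgcagatgt
GSK3B, chr3:119825859-119825888, minus strand: ggtcagggataCATCTCAccactgtgaata

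Expression was given as FPKM, a fragment count divided by transcript length and by the size of the library, so levels of different genes are compared per length. Estimated depth was 25.5 to 44.2 M fragments in the 6 siRNA libraries and 13.9 to 37.4 M in 3 of the 4 miRNA libraries. It could not be estimated for scrambled miRNA replicate 1. A level of 1 FPKM then stands for 27.7 to 88.4 fragments on a transcript of 2 kb, and 0.1 FPKM for 2.77 to 8.84. Across genes, the correlation between siRNA libraries was 0.988 to 0.996 inside a group and 0.962 to 0.967 across groups. Between miRNA libraries it was 0.997 inside a group and 0.966 to 0.968 across groups. LncND siRNA replicate 1 listed the Y RNA gene RNY4 at 1224670 FPKM, against 0.001 in the other 9 libraries. Of the sympathoadrenal markers fixed for this cell type, HAND2 was at 279 to 383 FPKM and GATA3 at 74.6 to 116 FPKM over the 10 libraries, while the tyrosine hydroxylase gene TH was under 1 FPKM in every library. The glial markers SOX10, GFAP, FOXD3 and CDH19 were under 0.1 FPKM in every library. Whether replicates came from separate cultures is not in the labels, so p-values reflect only the spread among these libraries, and that spread may be technical. The levels of LncND and of mature miR-143-3p were not analysed here. In bulk RNA, fewer cells of a type and less RNA per cell cannot be told apart.

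A gene was tested where its mean over the libraries of its table was at least 1 FPKM. Here "rose" and "fell" mean an adjusted p under 0.05 in limma on log2(FPKM + 1), with Benjamini-Hochberg adjustment over all genes tested. The larger changes are those of at least 1.5-fold on that scale, a log2 change of 0.585. Fold changes on this scale understate the change of genes with low FPKM. Errors of levels are SD with n = 3 per siRNA group and n = 2 per miRNA group, and errors of log2 fold changes are SE.

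SH-SY5Y cells expressed the shared intracellular part of the pathway and few of its ligands. At least 1 FPKM was reached in every library by 29 of the 58 genes, 24 were under 1 FPKM in every library, and 11 were under 0.1 FPKM in every library. The 29 included all 5 co-receptors, all 3 Dishevelled genes, all 5 genes of beta-catenin and its destruction complex and all 4 TCF/LEF genes, but 1 of the 19 ligands, WNT6. Of the ligands 16 stayed under 1 FPKM in every library, and WNT8A was listed at 0.001 FPKM, the lowest value, in all 10. The gene with the highest level was DKK1, which encodes a secreted inhibitor that binds LRP5 and LRP6, with a mean of 261 FPKM over the 5 control libraries of both tables, a level set across separately deposited tables. CTNNB1, the gene of beta-catenin, followed at 96.9 FPKM and the Dickkopf gene DKK3 at 38.7 FPKM. DKK3 averaged 56.5 FPKM with scrambled miRNA but 26.9 FPKM with scrambled siRNA, where DVL3 (34.9 FPKM) and DVL2 (27.1 FPKM) stood higher.

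**Figure D1:**
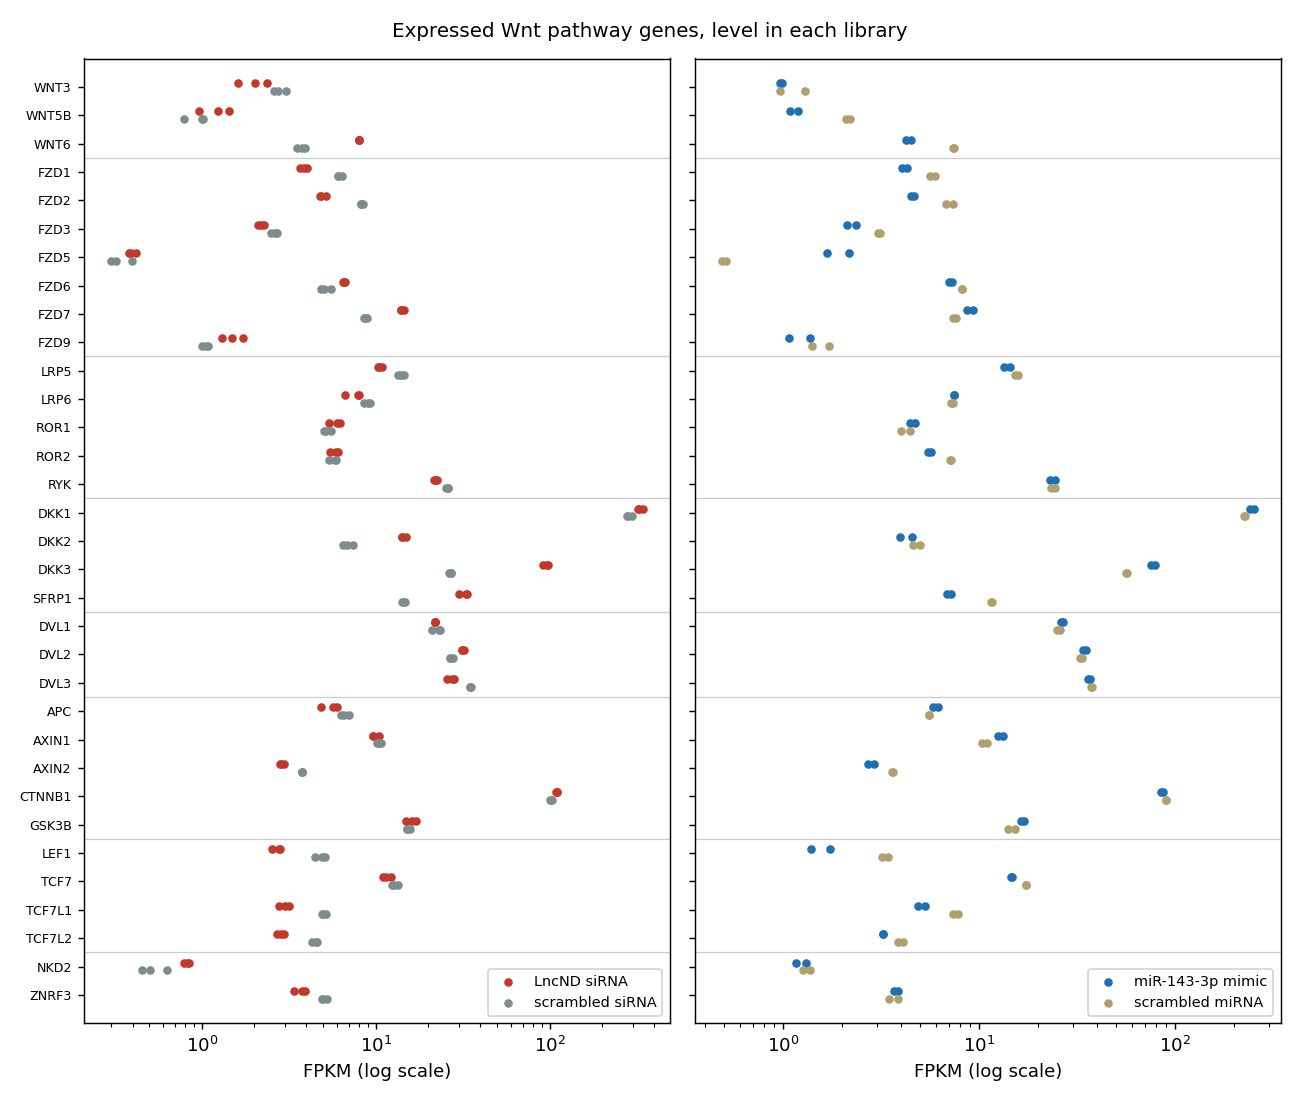
FPKM of each tested Wnt pathway gene in every library (log axis), with LncND siRNA and scrambled siRNA on the left and the miR-143-3p mimic and scrambled miRNA on the right. Each point is 1 library, and horizontal lines separate the roles. DKK1 stood highest in all 4 groups, and the 2 colours lay apart for DKK3, SFRP1 and LEF1 in both panels.

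With LncND siRNA the secreted antagonists rose and the TCF/LEF factors fell. All 4 tested antagonists rose, led by DKK3 with a 3.54-fold higher mean FPKM, and all 4 TCF/LEF genes fell, led by LEF1 at 0.559 of its control level. The most abundant ligand, WNT6, and the receptor FZD7 also rose by more than 1.5-fold, while the receptor FZD2 fell. Of 31 tested members 10 rose, 15 fell and 6 did not pass. Over all 12601 genes tested, 66.9% passed, of which 36.6% of genes rose and 30.3% fell. The change reached 1.5-fold in 8 members, against 12.3% of all genes tested. Of these, 5 rose (WNT6, FZD7, DKK2, DKK3 and SFRP1), where the share over all genes was 8.28%, and 3 fell (FZD2, LEF1 and TCF7L1), where it was 4.06%. Without LncND siRNA replicate 1, the count was 9 in place of 8. For 25 of the 31 members no LncND siRNA library overlapped a control, against 70.9% of all genes tested. The median log2 fold change of the 31 was -0.07, against 0.02 over all genes.

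With the miR-143-3p mimic the TCF/LEF factors fell as well, while the antagonists moved apart from each other. FZD5, a receptor at no more than 0.512 FPKM in any library without the mimic, rose, and WNT6, SFRP1 and LEF1 fell by at least 1.5-fold. FZD5 met the filter only through its level with the mimic. Of 33 tested members 6 rose, 14 fell and 13 did not pass. Over all 12558 genes tested, 63.3% passed, 24.6% rising and 38.6% falling. The 4 members with a change of at least 1.5-fold compare with 13.1% of all genes, and the 1 that rose and the 3 that fell with 3.98% and 9.13%. This balance depended on the scaling between libraries. The main values gave 3094 genes up and 4853 down, median-ratio scaling 3895 and 4075, and quantile normalization 4145 and 3854. Over the members the split was 6 up and 14 down, 8 and 12, and 9 and 11 under the same settings. Groups did not overlap for 28 of the 33 members, against 81.9% of all genes. The median log2 fold change of the 33 was -0.10, against -0.06 over all genes.

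**Figure D2:**
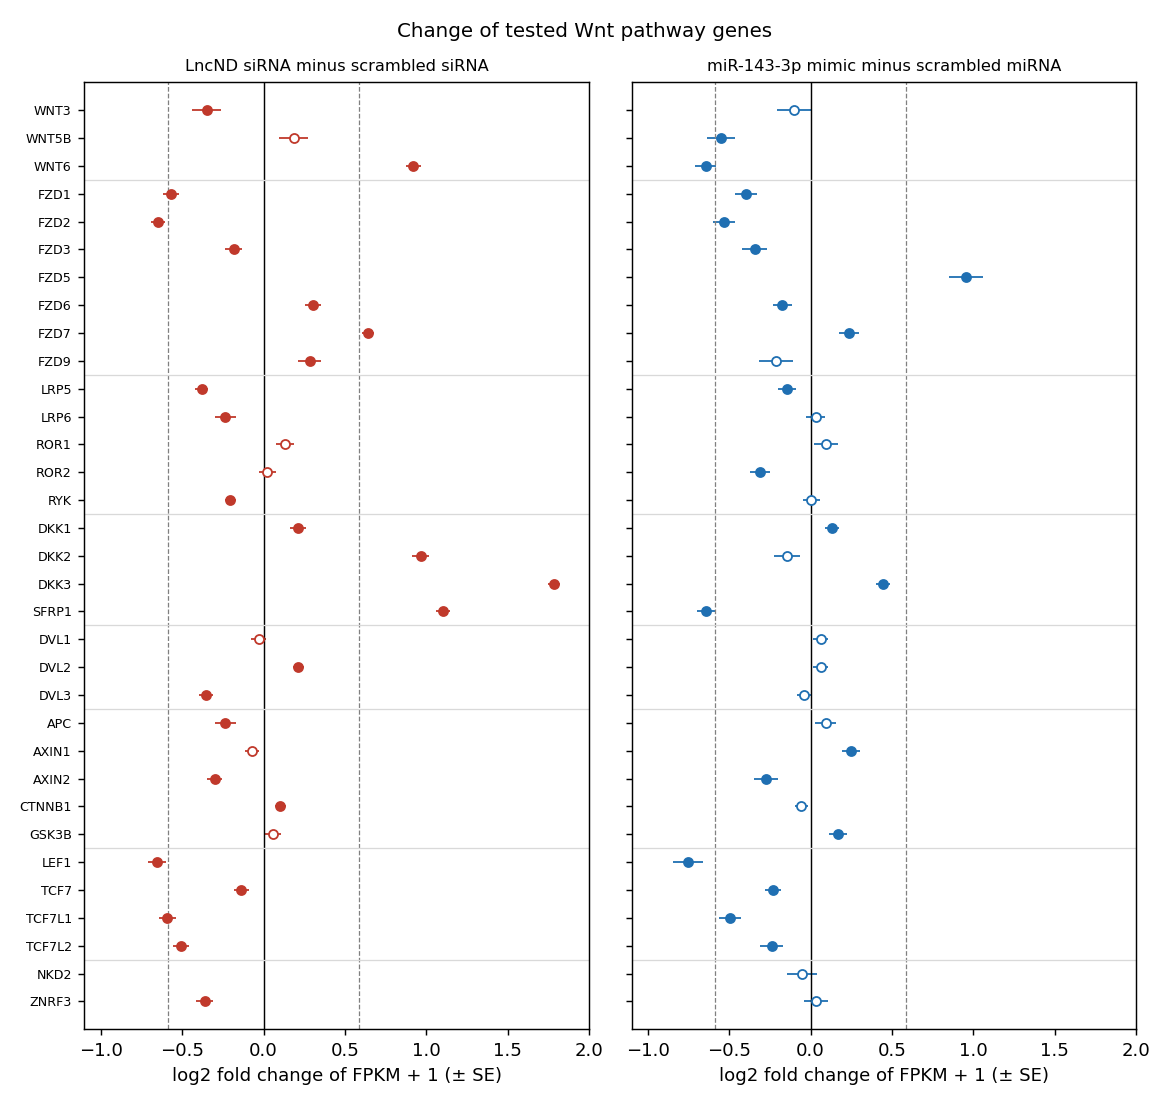
Log2 fold change of FPKM + 1 with its SE for each tested Wnt pathway gene, LncND siRNA minus scrambled siRNA (left) and miR-143-3p mimic minus scrambled miRNA (right). Filled points passed an adjusted p of 0.05, open points did not, and dashed lines mark 1.5-fold. The antagonists lay right of 0 with LncND siRNA, and the 4 TCF/LEF genes lay left of 0 in both panels.

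WNT6 was the most abundant ligand in every library and changed in opposite directions with the 2 treatments. WNT6 (hg19 chr2:219724546-219738954) encodes a ligand that can act through beta-catenin. It was at 7.998, 7.997 and 8.02 FPKM in the LncND siRNA libraries, against 3.94, 3.79 and 3.54 FPKM in the scrambled siRNA libraries. The groups did not overlap, and the log2 fold change was 0.92 ± 0.046 (limma adjusted p = 1.24e-07). With the mimic it was at 4.25 and 4.50 FPKM, against 7.45 and 7.36 FPKM with scrambled miRNA. Both mimic libraries lay below both controls, with a log2 fold change of -0.65 ± 0.064 (limma adjusted p = 2.03e-05). Under quantile normalization the change with the mimic stayed past the adjusted p but was -0.57, under 1.5-fold.

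Summed over the 19 ligand genes, FPKM was 12.7, 13.5 and 13.3 in the LncND siRNA libraries, against 8.81, 9.32 and 8.57 with scrambled siRNA. The mimic libraries summed to 8.17 and 8.84 FPKM, against 12.9 and 13.2 with scrambled miRNA. WNT6 made up 59.1% to 62.9% of that sum with LncND siRNA and 40.7% to 44.7% with scrambled siRNA. Its share was 50.9% to 52.0% with the mimic and 55.9% to 57.6% with scrambled miRNA. The ligand sum therefore followed WNT6 in its direction in both comparisons. Levels are compared only within a table, since the tables were deposited separately.

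**Figure D3:**
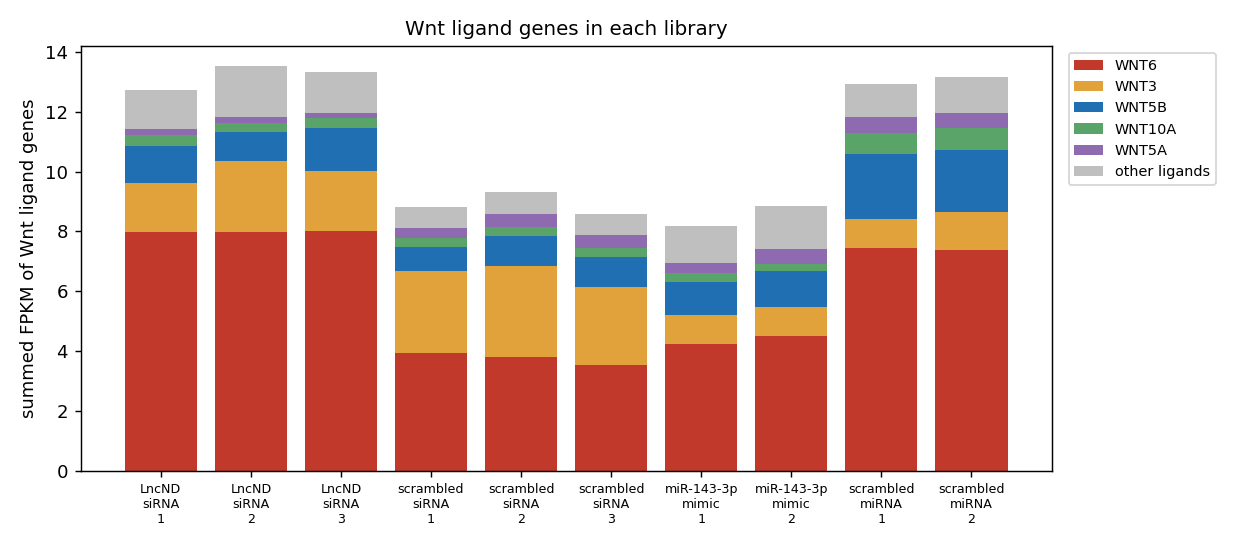
Summed FPKM of the 19 Wnt ligand genes in each library, stacked by gene. Coloured are the 5 ligands of highest mean level over the scrambled control libraries, with the other ligands in grey. Bars start at 0, and each bar is 1 library. WNT6 was the largest segment in every library, and the sum was higher with LncND siRNA than with scrambled siRNA and lower with the mimic than with scrambled miRNA.

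WNT3, a ligand that signals through beta-catenin, was the second ligand of the siRNA controls. It was at 1.61, 2.36 and 2.01 FPKM with LncND siRNA, against 2.73, 3.07 and 2.59 FPKM with scrambled siRNA, and fell by 0.35 on the log2 scale (SE 0.090, limma adjusted p = 0.0063). With the mimic it was at 0.962 and 0.985 FPKM, against 0.960 and 1.29 FPKM with scrambled miRNA, so the groups overlapped. WNT3 met the filter there only through its level with scrambled miRNA. No test of it with the mimic is therefore given, though it is counted among the members that did not pass. WNT5B, a ligand mostly linked to routes without beta-catenin, behaved the other way. The mimic libraries held 1.09 and 1.19 FPKM, against 2.18 and 2.09 FPKM with scrambled miRNA, a log2 fold change of -0.55 ± 0.085 (limma adjusted p = 0.000338). With LncND siRNA WNT5B was at 1.24, 0.966 and 1.43 FPKM, against 0.795, 1.00 and 1.02 FPKM with scrambled siRNA, so the groups overlapped. WNT5B met the filter there only through its level with LncND siRNA. No test of it is therefore given there, though it is counted among the members that did not pass.

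The remaining 16 ligands lay under the filter. With the filter lowered to a mean of 0.1 FPKM, WNT4, a ligand of kidney and gonad development, was at 0.286, 0.427 and 0.378 FPKM with LncND siRNA, against 0.0132, 0.0157 and 0.0140 FPKM with scrambled siRNA. All 3 LncND siRNA libraries were above all 3 controls. WNT4 met the lowered filter only through its level with LncND siRNA, so no test of it is given. WNT2B was at 0.401, 0.570 and 0.573 FPKM with LncND siRNA, against 0.144, 0.111 and 0.183 FPKM with scrambled siRNA (0.40, limma adjusted p = 0.000297). WNT5A, the main ligand of the ROR receptors, went down, at 0.187, 0.188 and 0.166 FPKM with LncND siRNA against 0.337, 0.429 and 0.429 FPKM with scrambled siRNA (-0.24, limma adjusted p = 0.00166). These are levels of few fragments, given the depth above. With the mimic, WNT7A, whose UTR match is printed above, was at 0.295 and 0.462 FPKM, against 0.0125 and 0.0142 FPKM with scrambled miRNA. It met the lowered filter only through its level with the mimic, so no test of it is given either. WNT10A, a ligand that acts through beta-catenin in skin and teeth, went down to 0.304 and 0.242 FPKM with the mimic, against 0.708 and 0.724 FPKM with scrambled miRNA (-0.43, limma adjusted p = 0.00191). These low ligands did not share a direction in either comparison.

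The Frizzled receptors, which bind the ligands at the cell surface, changed in both directions with LncND siRNA. Of 6 tested, FZD6, FZD7 and FZD9 rose and FZD1, FZD2 and FZD3 fell. FZD7 (hg19 chr2:202899310-202903160) was at 14.04, 14.5 and 13.96 FPKM in the LncND siRNA libraries, against 8.72, 8.60 and 8.87 FPKM with scrambled siRNA. The groups lay far apart, with a log2 fold change of 0.64 ± 0.038 (limma adjusted p = 3.19e-07). FZD2 (hg19 chr17:42634812-42638630) was at 4.82, 4.81 and 5.18 FPKM with LncND siRNA, against 8.21, 8.43 and 8.25 FPKM with scrambled siRNA. It was lower in every LncND siRNA library, by -0.65 ± 0.044 (limma adjusted p = 8.04e-07). FZD1 was close to that, at 3.85 ± 0.184 FPKM with LncND siRNA and 6.18 ± 0.151 FPKM with scrambled siRNA (-0.57 ± 0.047, limma adjusted p = 3.12e-06). The sum over all 10 receptors was 34.3 to 34.6 FPKM with LncND siRNA and 33.3 to 34.0 FPKM with scrambled siRNA. Within this nearly level sum, FZD7 took 40.6% to 42.3% with LncND siRNA and 25.8% to 26.2% with scrambled siRNA. Quantile normalization ended the call of FZD9, with a limma adjusted p of 0.126 (range 0.00231 to 0.126).

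With the mimic, 2 of 7 tested Frizzled genes rose and 4 fell. FZD5 (hg19 chr2:208627310-208634143) was at 2.17 and 1.67 FPKM in the mimic libraries, against 0.488 and 0.512 FPKM with scrambled miRNA. Both mimic libraries were above both controls, and the mean was 3.84-fold higher. FZD5 met the filter there only through its level in the mimic libraries. No test of it is therefore given, though it is counted among the genes that rose. In the siRNA table it was at 0.391, 0.381 and 0.421 FPKM with LncND siRNA, against 0.301, 0.395 and 0.322 FPKM with scrambled siRNA, overlapping and under the filter. FZD7 was at 8.64 and 9.27 FPKM with the mimic, against 7.33 and 7.60 FPKM with scrambled miRNA (0.23 ± 0.062, limma adjusted p = 0.00811). FZD2 was at 4.66 and 4.48 FPKM with the mimic, against 7.35 and 6.76 FPKM with scrambled miRNA (-0.53 ± 0.067, limma adjusted p = 9.79e-05). FZD1 and FZD3 fell too, by 0.39 and 0.34 on the log2 scale. The fall of FZD6 (limma adjusted p = 0.0268, range 0.0204 to 0.146) was lost without mimic replicate 1, without either scrambled miRNA library, and under both other scalings.

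Among the co-receptors LRP5 and LRP6, which pair with Frizzled in the beta-catenin route, both fell with LncND siRNA. LRP5 was at 10.4, 10.8 and 10.3 FPKM with LncND siRNA, against 13.9, 14.6 and 13.5 FPKM with scrambled siRNA, with groups apart (-0.38 ± 0.042, limma adjusted p = 2.41e-05). LRP6 averaged 7.49 ± 0.756 FPKM with LncND siRNA and 8.96 ± 0.353 FPKM with scrambled siRNA (-0.23 ± 0.064, limma adjusted p = 0.00872). RYK, a receptor with an inactive kinase domain, was at 22.5, 22.3 and 21.7 FPKM with LncND siRNA, against 25.9, 25.2 and 25.9 FPKM with scrambled siRNA (-0.20 ± 0.035, limma adjusted p = 0.000526). The receptor tyrosine kinases ROR1 and ROR2 did not pass there, at 5.85 ± 0.438 and 5.82 ± 0.307 FPKM with LncND siRNA and 5.25 ± 0.256 and 5.71 ± 0.273 FPKM with scrambled siRNA. Without LncND siRNA replicate 1 ROR1 passed (0.18, limma adjusted p = 0.00949, range 0.00949 to 0.235).

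With the mimic ROR2 fell, at 5.57 ± 0.108 FPKM with the mimic and 7.14 ± 0.0138 FPKM with scrambled miRNA (-0.31 ± 0.061, limma adjusted p = 0.00156). LRP5 was at 14.3 and 13.4 FPKM with the mimic, against 15.2 and 15.8 FPKM with scrambled miRNA (-0.15 ± 0.055, limma adjusted p = 0.0397). That call was lost without mimic replicate 2, without either scrambled miRNA library, under both other scalings and without the variance trend (range 0.0229 to 0.287). RYK was at 23.045 and 24.5 FPKM with the mimic, against 23.1 and 24.3 FPKM with scrambled miRNA, so the groups overlapped (limma adjusted p = 0.955).

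All 4 tested secreted antagonists rose with LncND siRNA, and the other 4 were under the filter. DKK3 (hg19 chr11:11984543-12030917), a divergent Dickkopf, was at 91.7, 96.5 and 97.5 FPKM in the LncND siRNA libraries, against 26.4, 27.1 and 27.2 FPKM in the scrambled siRNA libraries. Every LncND siRNA library was above every control, and the log2 fold change was 1.79 ± 0.038 (limma adjusted p = 2.00e-09). SFRP1 (hg19 chr8:41119476-41166990), a secreted Frizzled-related protein that binds Wnt ligands, was at 30.1, 33.0 and 33.4 FPKM with LncND siRNA, against 14.7, 14.1 and 14.5 FPKM with scrambled siRNA. Its mean was 2.23-fold higher with no overlap (1.10 ± 0.045, limma adjusted p = 4.09e-08). DKK2 (hg19 chr4:107842959-107957453), which like DKK1 binds LRP5 and LRP6, was at 14.2, 14.9 and 14.2 FPKM with LncND siRNA, against 7.44, 6.46 and 6.84 FPKM with scrambled siRNA. It too lay apart (0.97 ± 0.051, limma adjusted p = 1.59e-07). DKK1 (hg19 chr10:54074041-54077417) was at 344, 322 and 325 FPKM with LncND siRNA, against 282, 278 and 296 FPKM with scrambled siRNA. The change was smaller, 0.21 ± 0.048 (limma adjusted p = 0.00302). Summed over the 8 antagonist genes, the level was 467 to 480 FPKM with LncND siRNA and 326 to 344 FPKM with scrambled siRNA.

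With the mimic the antagonists split. DKK3 rose, at 79.1 and 75.5 FPKM with the mimic against 56.2 and 56.8 FPKM with scrambled miRNA (0.44 ± 0.043, limma adjusted p = 1.76e-05). SFRP1 fell, at 7.19 and 6.85 FPKM with the mimic against 11.5 and 11.6 FPKM with scrambled miRNA (-0.64 ± 0.057, limma adjusted p = 1.04e-05). It stayed past the adjusted p under both other scalings but was under 1.5-fold there, at the least -0.57. DKK2 was at 4.52 and 3.94 FPKM with the mimic, against 4.97 and 4.59 FPKM with scrambled miRNA, and did not pass (limma adjusted p = 0.133). It passed without mimic replicate 1 (0.0476, range 0.0476 to 0.537). DKK1 was at 241 and 252 FPKM with the mimic, against 224 and 225 FPKM with scrambled miRNA (0.13 ± 0.043, limma adjusted p = 0.0217). That call was lost without mimic replicate 2, without either scrambled miRNA library and without the variance trend (range 5.86e-05 to 0.113).

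Markers of other cell types also differed between the groups. The sum of 6 mesenchymal markers was 124 to 133 FPKM with LncND siRNA and 95.6 to 100.1 FPKM with scrambled siRNA, and 60.3 to 65.1 FPKM with the mimic and 106 to 110 FPKM with scrambled miRNA. Decorin (DCN) alone was at 50.7, 53.8 and 54.4 FPKM with LncND siRNA, against 17.3, 16.1 and 15.02 FPKM with scrambled siRNA. Of the other 5, COL1A1, COL1A2 and PDGFRB were lower in every LncND siRNA library than in every control, COL3A1 and LUM overlapped, and COL1A2 was at 0.325 FPKM or less throughout. All 6 were lower in both mimic libraries than in both controls. The 6 epithelial markers summed to 3.75 to 4.19 FPKM with LncND siRNA and 1.29 to 1.40 FPKM with scrambled siRNA. Of these EPCAM, KRT18 and CLDN4 were higher in every LncND siRNA library, and KRT5 was listed at 0.001 FPKM in all 6 siRNA libraries. KRT8 and CDH1 overlapped between the siRNA groups, at 0.0454 to 0.146 and 0.0168 to 0.05 FPKM. The endothelial and immune markers PECAM1, CDH5, KDR, PTPRC and TEK were at or near 0 in every library, and CD68 was at 2.78 to 3.24 FPKM with LncND siRNA and 0.913 to 1.08 FPKM with scrambled siRNA. CD34 went the other way, at 0.119 to 0.165 FPKM with LncND siRNA and 0.188 to 0.253 FPKM with scrambled siRNA. The part of these cell types in the change of the antagonists was not tested.

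**Figure D4:**
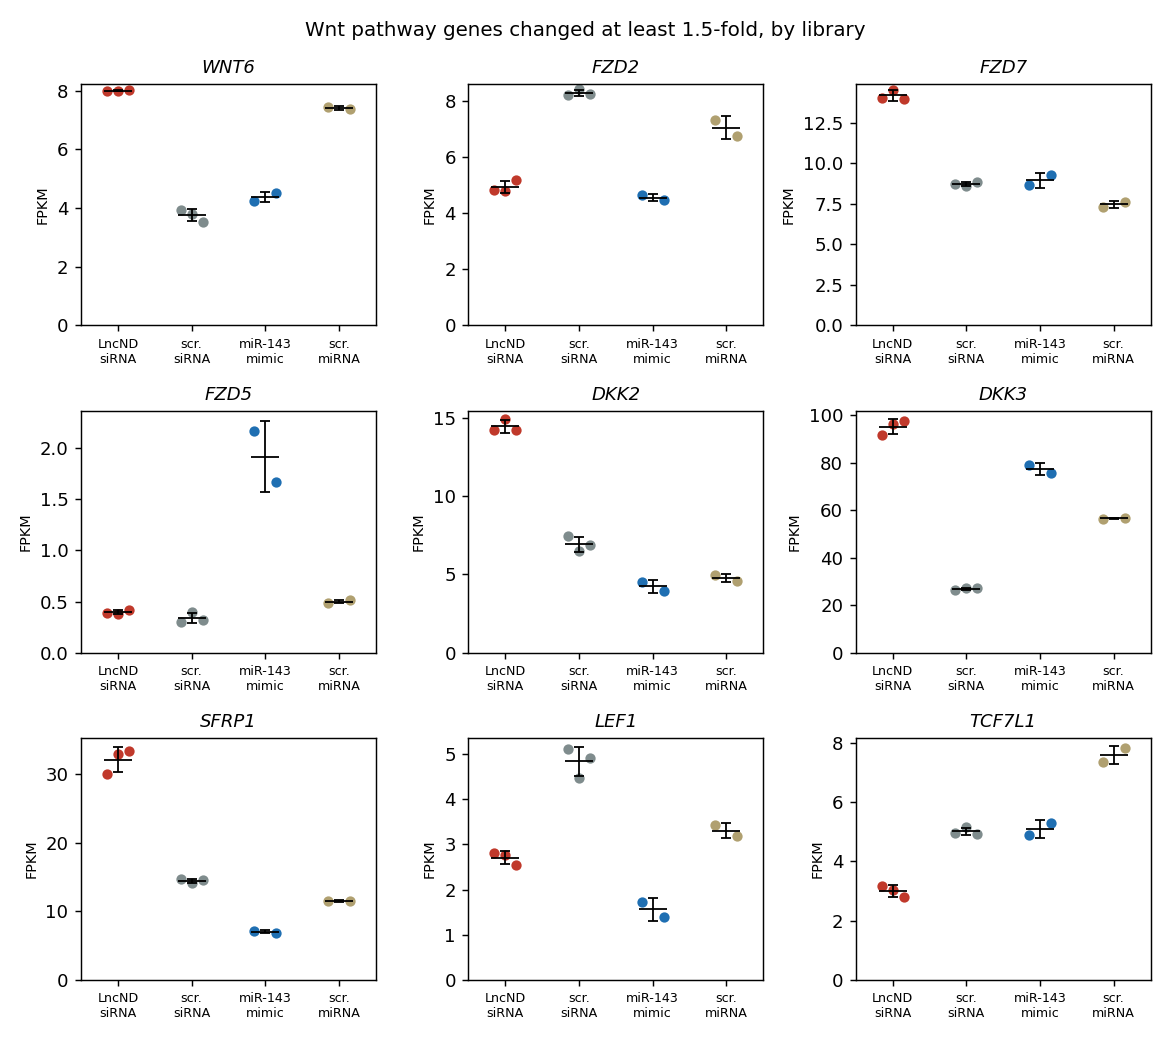
FPKM of the 9 Wnt pathway genes that changed by at least 1.5-fold in either comparison, with 1 point per library and a bar for the mean ± SD (n = 3 per siRNA group, n = 2 per miRNA group). Axes start at 0. LEF1 was lower with both treatments than with their scrambled controls, and WNT6 and SFRP1 were higher with LncND siRNA and lower with the mimic.

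The Dishevelled proteins relay the signal from Frizzled to the destruction complex, and their genes changed by less than 1.5-fold. DVL3 fell with LncND siRNA, at 25.8, 27.4 and 28.3 FPKM against 34.7, 35.4 and 34.7 FPKM with scrambled siRNA (-0.35 ± 0.041, limma adjusted p = 3.13e-05). DVL2 rose, at 31.5, 32.3 and 31.2 FPKM with LncND siRNA against 26.9, 26.7 and 27.8 FPKM with scrambled siRNA (0.21 ± 0.035, limma adjusted p = 0.000381). DVL1 overlapped, at 21.9, 22.1 and 21.9 FPKM with LncND siRNA against 21.0, 23.4 and 22.99 FPKM with scrambled siRNA (limma adjusted p = 0.561). So DVL3 was the most abundant of the 3 with scrambled siRNA, and DVL2 was with LncND siRNA. None of the 3 passed with the mimic. DVL3, with an 8-base seed match, was at 35.9 and 36.9 FPKM with the mimic, against 37.2 and 37.7 FPKM with scrambled miRNA (-0.04 ± 0.043, limma adjusted p = 0.423), and its sign turned under both other scalings. DVL1 was at 26.7 and 26.1 FPKM with the mimic against 25.7 and 24.9 FPKM with scrambled miRNA, and DVL2 at 35.0 and 33.7 FPKM with the mimic against 32.5 and 33.3 FPKM with scrambled miRNA. Both passed under the other scalings, DVL1 at an adjusted p of 0.038 and 0.0211 (range 0.0211 to 0.659) and DVL2 at 0.0341 and 0.02 (range 0.02 to 0.601).

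Beta-catenin and the genes of its destruction complex also changed by less than 1.5-fold. CTNNB1 (hg19 chr3:41240942-41281939) was at 109.6, 109.8 and 109.3 FPKM with LncND siRNA, against 102, 101 and 103 FPKM with scrambled siRNA. The groups did not overlap, but the difference was 0.10 ± 0.035 on the log2 scale (limma adjusted p = 0.023, range 0.0134 to 0.285). The call was lost without any single library other than LncND siRNA replicate 1, and under quantile normalization. With the mimic CTNNB1 was at 85.0 and 86.8 FPKM, against 89.6 and 89.2 FPKM with scrambled miRNA, did not pass (limma adjusted p = 0.245) and turned its sign under both other scalings. GSK3B, the kinase that phosphorylates beta-catenin, was at 14.9, 16.1 and 17.0 FPKM with LncND siRNA, against 15.8, 15.1 and 15.1 FPKM with scrambled siRNA, overlapping (limma adjusted p = 0.316). With the mimic GSK3B was at 16.2 and 16.9 FPKM, against 14.1 and 15.2 FPKM with scrambled miRNA (0.17 ± 0.056, limma adjusted p = 0.0252). That rise was lost without mimic replicate 2 and without scrambled miRNA replicate 1 (range 0.00369 to 0.209).

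Of the scaffolds, AXIN2, which is also a widely used target gene of beta-catenin, fell in both comparisons. It averaged 2.89 ± 0.0842 FPKM with LncND siRNA and 3.78 ± 0.00819 FPKM with scrambled siRNA (-0.30 ± 0.046, limma adjusted p = 0.000259). The mimic libraries averaged 2.81 ± 0.125 FPKM and the scrambled miRNA libraries 3.60 ± 0.0163 FPKM (-0.27 ± 0.073, limma adjusted p = 0.00879). AXIN1 did not pass with LncND siRNA (9.93 ± 0.476 FPKM with LncND siRNA, against 10.5 ± 0.305 FPKM with scrambled siRNA) and rose with the mimic (12.8 ± 0.488 FPKM with the mimic, against 10.6 ± 0.426 FPKM with scrambled miRNA, 0.25 ± 0.057, limma adjusted p = 0.00401). Without LncND siRNA replicate 1, AXIN1 and GSK3B passed in the siRNA table too, at -0.11 and 0.10 on the log2 scale (limma adjusted p = 0.041, range 0.041 to 0.402, and 0.0445, range 0.0445 to 0.776). APC, the large scaffold lost in many colon tumours, averaged 5.50 ± 0.565 FPKM with LncND siRNA and 6.63 ± 0.338 FPKM with scrambled siRNA, a fall of 0.23 on the log2 scale (limma adjusted p = 0.00989). With the mimic it averaged 5.997 ± 0.251 FPKM, against 5.56 ± 0.00574 FPKM with scrambled miRNA, and passed under quantile normalization alone (0.0405, range 0.0405 to 0.568).

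The 4 TCF/LEF genes, whose products bind DNA and recruit beta-catenin, fell in both comparisons, with exceptions for TCF7 and TCF7L2 under some settings. LEF1 (hg19 chr4:108968701-109090112) was at 2.80, 2.77 and 2.54 FPKM in the LncND siRNA libraries, against 5.12, 4.48 and 4.92 FPKM in the scrambled siRNA libraries. No libraries overlapped, and the log2 fold change was -0.65 ± 0.057 (limma adjusted p = 4.51e-06). With the mimic LEF1 was at 1.73 and 1.38 FPKM, against 3.42 and 3.19 FPKM with scrambled miRNA. This was 0.471 of the control level (-0.75 ± 0.091, limma adjusted p = 7.06e-05). TCF7L1 (hg19 chr2:85360583-85537511), a factor that acts largely as a repressor, was at 3.17, 3.02 and 2.79 FPKM with LncND siRNA, against 4.95, 5.15 and 4.91 FPKM with scrambled siRNA (-0.59 ± 0.052, limma adjusted p = 4.45e-06). It was just past 1.5-fold, and under it without scrambled siRNA replicate 2 or LncND siRNA replicate 3. With the mimic TCF7L1 was at 4.87 and 5.30 FPKM, against 7.36 and 7.81 FPKM with scrambled miRNA (-0.50 ± 0.067, limma adjusted p = 0.00015). For both genes every library of the treated cells was below every control.

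TCF7L2, the main TCF factor of the intestine, averaged 2.84 ± 0.128 FPKM with LncND siRNA and 4.46 ± 0.160 FPKM with scrambled siRNA (-0.51 ± 0.050, limma adjusted p = 1.08e-05). With the mimic it averaged 3.22 ± 0.00833 FPKM, against 3.98 ± 0.171 FPKM with scrambled miRNA (-0.24 ± 0.071, limma adjusted p = 0.0153). The call with the mimic was lost under quantile normalization and without scrambled miRNA replicate 2 (range 0.00725 to 0.102). TCF7, the most abundant of the 4 and named for its role in T cells, was at 14.5 and 14.7 FPKM with the mimic, against 17.3 and 17.3 FPKM with scrambled miRNA (-0.23 ± 0.049, limma adjusted p = 0.00235). With LncND siRNA TCF7 was at 11.002, 12.2 and 11.5 FPKM, against 12.5, 12.7 and 13.4 FPKM with scrambled siRNA (-0.14 ± 0.047, limma adjusted p = 0.027). That call was lost without scrambled siRNA replicate 2 or 3 and without LncND siRNA replicate 1 or 3 (range 0.0134 to 0.109). Summed over the 4 genes, the level was 19.6 to 21.0 FPKM with LncND siRNA and 26.6 to 27.7 FPKM with scrambled siRNA, and 24.3 to 24.6 FPKM with the mimic and 31.9 to 32.4 FPKM with scrambled miRNA.

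Of the feedback inhibitors, ZNRF3, a ubiquitin ligase that removes Frizzled from the membrane, was the 1 gene at 1 FPKM or more in every library. It fell with LncND siRNA, at 3.40, 3.79 and 3.90 FPKM against 4.90, 5.25 and 4.95 FPKM with scrambled siRNA (-0.36 ± 0.055, limma adjusted p = 0.000219). With the mimic it was at 3.83 and 3.69 FPKM, against 3.47 and 3.84 FPKM with scrambled miRNA, with overlap (limma adjusted p = 0.706). Its paralogue RNF43 was under 0.1 FPKM in every library. NKD2, which binds Dishevelled, was tested with the mimic only, at 1.16 and 1.31 FPKM against 1.26 and 1.38 FPKM with scrambled miRNA (limma adjusted p = 0.635).

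The 2 treatments share no control library, and the difference of their effects was tested directly. It passed for 19 of 31 members tested in both tables, against 60.2% of 12327 genes. The largest differences were in SFRP1 (1.75 ± 0.069, limma adjusted p = 4.54e-10), WNT6 (1.57 ± 0.072, 1.85e-09), DKK3 (1.34 ± 0.057, 7.62e-10) and DKK2 (1.11 ± 0.090, 2.96e-07), given as the LncND siRNA effect minus the mimic effect. All 4 were higher with LncND siRNA relative to its control than with the mimic relative to its own. Of the 31 members tested in both tables, 3 changed by at least 1.5-fold in both, against 3.67% of all genes tested in both. WNT6 and SFRP1 did so in opposite directions. LEF1 fell in both, and the difference of its effects did not pass (0.10 ± 0.103, limma adjusted p = 0.426). The difference did not pass for TCF7, TCF7L1 or AXIN2 either (adjusted p = 0.257, 0.351 and 0.774), while TCF7L2 fell further with LncND siRNA (-0.27 ± 0.079, limma adjusted p = 0.00989).

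Seed matches to miR-143-3p were about as common among these genes as elsewhere. Counted were an 8-base match (TCATCTCA), a 7-base match to the whole seed (TCATCTC) and a 7-base match to its first 6 bases followed by A (CATCTCA), on the transcript strand, each site once. Of the 33 members tested with the mimic 8 held a match (24.2%), against 24.8% of 11188 tested genes with an annotated UTR, and of all 58 members 16 did (27.6%). Of the 8, GSK3B rose, WNT5B, FZD3 and TCF7 fell, and WNT3, LRP6, DVL3 and ZNRF3 did not pass. Their median log2 fold change was -0.07. Of the 25 tested members without a match 5 rose, 11 fell and 9 did not pass, with a median of -0.14. LEF1, WNT6, SFRP1 and FZD5, the 4 members that changed by at least 1.5-fold with the mimic, held no match in this UTR. Of the members with an 8-base match, TCF7 fell, DVL3 did not pass, and WNT7A and WNT7B were under the filter.

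Letters bound by TCF/LEF factors were searched in the promoters of the members, since these factors fell together. The motif letters were either CTTTGAA or the variant CTTTGAT, and likewise CTTTGTA or its variant CTTTGTT, which cannot match at the same position of a strand, searched on both strands, in 250 bases before and 50 bases after each start (RefSeq, GRCh38.p14). At least 1 was found in 4 of 50 promoters of 42 members (8.0%), against 13.8% of 35116 promoters. The 4 were those of DKK1, TCF7, TCF7L2 and WNT3, and other listed promoters of TCF7 and TCF7L2 held none. Members outside the 42, among them DKK2, DKK3, SFRP1, FZD2, FZD7 and AXIN2, had no listed promoter and were not searched. The DKK1 promoter, of the member with the highest level, is printed with its 2 matches in capitals, which start 95 and 76 bases before the transcription start.
DKK1 promoter, GRCh38.p14, chr10:52314031-52314330, plus strand: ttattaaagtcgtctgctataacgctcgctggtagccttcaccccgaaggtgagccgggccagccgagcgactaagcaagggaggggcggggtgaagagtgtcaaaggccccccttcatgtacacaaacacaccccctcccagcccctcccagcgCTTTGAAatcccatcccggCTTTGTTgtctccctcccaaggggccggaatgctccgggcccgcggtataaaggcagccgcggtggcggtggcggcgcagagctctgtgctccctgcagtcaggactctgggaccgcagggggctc
DKK1 rose in both comparisons and TCF7 and TCF7L2 fell in both. WNT3 fell with LncND siRNA, and its mimic libraries overlapped their controls. The genes with these letters therefore did not share a direction.

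Around these genes, 104 further pathway genes had a row, and 79 were tested in each table. With LncND siRNA 25 rose, 28 fell and 26 did not pass, where 66.9% of all genes tested passed. A change of 1.5-fold or more was reached by 7, against 12.3% of all genes, so the first share was about that of all genes and the second lower. The Dickkopf receptor gene KREMEN2 rose, at 4.44, 4.97 and 4.95 FPKM with LncND siRNA against 1.69, 1.70 and 1.78 FPKM with scrambled siRNA (1.08 ± 0.055, limma adjusted p = 1.35e-07). TMEM88, a membrane protein that binds Dishevelled and dampens the signal, averaged 5.65 ± 0.259 FPKM with LncND siRNA and 2.26 ± 0.269 FPKM with scrambled siRNA (1.03 ± 0.066, limma adjusted p = 5.62e-07). TBX3, a T-box factor and reported beta-catenin target, rose too (24.4 ± 1.56 FPKM with LncND siRNA, against 15.9 ± 0.563 FPKM with scrambled siRNA). Its log2 fold change of 0.586 was just past 1.5-fold, and its lowest value over the alternatives, 0.538, was under it. Fallen were WLS, which carries Wnt ligands to the cell surface (22.4 ± 1.27 FPKM with LncND siRNA, against 35.0 ± 0.396 FPKM with scrambled siRNA), and LGR5, a receptor for R-spondins (45.8 ± 4.24 FPKM with LncND siRNA, against 74.4 ± 2.17 FPKM with scrambled siRNA). The beta-catenin targets MYC (10.0 ± 0.326 FPKM with LncND siRNA, against 18.9 ± 0.372 FPKM with scrambled siRNA) and BIRC5, the survivin gene (36.6 ± 4.46 FPKM with LncND siRNA, against 61.4 ± 1.53 FPKM with scrambled siRNA), fell as well. Of 11 tested textbook beta-catenin targets outside the 58 genes, 5 rose, 4 fell and 2 did not pass, where 36.6% of all genes rose and 30.3% fell. JAG1 is among the 5 but met the filter only through its level with LncND siRNA (1.41 FPKM, against 0.905 FPKM with scrambled siRNA).

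With the mimic 21 of the 79 rose, 23 fell and 35 did not pass, where 63.3% of all genes tested passed. A change of 1.5-fold or more was reached by 10, against 13.1% of all genes, so neither share was above that of all genes. WLS and BIRC5 fell there as well, at 20.5 ± 0.365 and 39.0 ± 0.639 FPKM with the mimic and 31.9 ± 1.07 and 63.5 ± 0.392 FPKM with scrambled miRNA. FRZB, a secreted Frizzled-related protein like SFRP1, was at 4.94 and 4.87 FPKM with the mimic, against 9.84 and 10.6 FPKM with scrambled miRNA (-0.92 ± 0.063, limma adjusted p = 1.86e-06). The planar polarity gene PRICKLE1 (1.22 ± 0.194 FPKM with the mimic, against 2.51 ± 0.112 FPKM with scrambled miRNA) fell too. The glypican gene GPC4, at 0.795 ± 0.0804 FPKM with the mimic and 1.69 ± 0.184 FPKM with scrambled miRNA, is among the 10 but met the filter only through its level with scrambled miRNA. Of the genes that rose, APC2 and PYGO2 act on beta-catenin. The APC paralogue APC2 was at 19.1 and 18.3 FPKM with the mimic, against 8.96 and 9.42 FPKM with scrambled miRNA (0.95 ± 0.054, limma adjusted p = 6.66e-07). PYGO2, a nuclear coactivator of beta-catenin, averaged 48.1 ± 1.36 FPKM with the mimic and 25.2 ± 0.301 FPKM with scrambled miRNA (0.91 ± 0.045, limma adjusted p = 2.88e-07). The TCF-bound corepressor TLE4 (23.9 ± 0.0158 FPKM with the mimic, against 12.6 ± 0.405 FPKM with scrambled miRNA), the TCF kinase NLK (6.88 ± 0.671 FPKM with the mimic, against 3.44 ± 0.341 FPKM with scrambled miRNA) and the target gene ID2 (59.5 ± 3.49 FPKM with the mimic, against 30.3 ± 0.450 FPKM with scrambled miRNA) rose likewise. Of the 11 targets 3 rose, 2 fell and 6 did not pass, where 24.6% of all genes rose and 38.6% fell.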

How the data were processed

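Poly(A) RNA libraries of SH-SY5Y cells were used, 3 per siRNA group and 2 per miRNA group. The deposited values are FPKM per gene, with siRNA and miRNA libraries in separate tables. TopHat 1.0.0 and Cufflinks were used with build hg19, per the submitters' processing notes, and libraries were stranded, per the labels' protocols. Their order, settings and annotation are not given in the sources used. The authors' tables had 25275 rows each, list 0.001 as the lowest FPKM, and hold status words in place of values in 274 rows for all libraries. Rows off the assembled chromosomes (1304) and rows with status words were left out, leaving 23416 and 23426 genes.

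From the FPKM values, log2(FPKM + 1) was tested with limma 3.58.1 in R 4.3.3 (empirical Bayes with a variance trend), on genes averaging 1 FPKM or more over a table. P-values were adjusted by Benjamini-Hochberg over all genes tested, and the threshold was 0.05, with 1.5-fold for the larger changes. Each comparison was fitted in its own table, and the difference of effects in 1 fit over all 10 libraries. The fit was tested on simulated data. Members were found by symbol. The rule for genes described library by library was members changed by at least 1.5-fold in either comparison and the 10 members of highest control level, and for other pathway genes the 12 of largest change past 1.5-fold. Further members given by library were added after their values were seen. The members and gene lists were chosen with earlier results of these data known. Depth was estimated from the steps between low FPKM values. Alternatives were the pseudocount, the filter, median-ratio and quantile scaling, no variance trend, a replicate block and leaving out each library. Some marker genes are not reported here.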

Additional observations from a re-analysis of the deposited data

How the results depend on the processing

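Of 1020 values recomputed under an alternative, 966 kept their direction and side of the threshold, 31 no longer passed, 12 newly passed and 11 changed sign. None of the 11 had passed. They were, on the log2 scale, ROR2 with LncND siRNA (-0.027 under quantile normalization, -0.011 without scrambled siRNA replicate 1, -0.0046 without LncND siRNA replicate 3, and up to 0.059 without LncND siRNA replicate 1) and, with the mimic, DVL3 (0.025 under median-ratio and 0.042 under quantile scaling), CTNNB1 (0.011 and 0.041 under the same), NKD2 (0.0053 under quantile), RYK (-0.038 without mimic replicate 2, -0.030 without scrambled miRNA replicate 1, and up to 0.045 without mimic replicate 1) and ZNRF3 (-0.024 without scrambled miRNA replicate 1, and up to 0.093 without scrambled miRNA replicate 2). The cause was not tested. Members past 1.5-fold with the mimic numbered 2 in place of 4 with a filter of 5 FPKM and with quantile normalization, and other pathway genes with LncND siRNA 12 in place of 7 with log2(FPKM + 0.1). Leaving out 1 library gave 7 to 9 members with LncND siRNA, 3 to 5 with the mimic and 17 to 20 for the difference and 6 to 9 and 8 to 11 other pathway genes. The count of all genes changed at least 1.5-fold with LncND siRNA was 1486 to 1634, and that of all genes changed at least 1.5-fold with miR-143-3p mimic 1624 to 1754. In the groups of 2 this leaves a lone library, assumed to vary like the others. Same-numbered libraries had deviation correlations of -0.053 to 0.207 (siRNA) and 0.135 (miRNA), and not every siRNA library correlated best with its own number, so the numbers were not taken to pair the libraries. With a replicate block, 8 members with LncND siRNA and 4 with the mimic were past 1.5-fold and 18 passed for the difference, with 7 and 10 other pathway genes and 1556 and 1654 of all genes past 1.5-fold. CTNNB1 with LncND siRNA did not pass with the block (adjusted p = 0.0868, range 0.0134 to 0.285). Depth limits members under 1 FPKM most.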
